A study of Mus musculus with 6 samples.

Results

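Genes of inhibitory signalling by GABA and glycine were followed in RNA of the whole cerebellum of mice in which the N153S form of STING was switched on in Purkinje cells. The set held 28 genes chosen by role from the 53746 genes of the count table: 14 genes for subunits of the GABA-A receptor and its rho relatives, 2 for subunits of the GABA-B receptor, 5 for subunits of the glycine receptor, 5 for making, loading, taking up or breaking down GABA, and 2 for the postsynaptic scaffold and its adhesion. The rule behind the list uses no measured value, but the genes were chosen with earlier results of these data known. RNA was sequenced from 3 *N153SLSL/LSLPcp2-cre* mice (Pcp2-cre mice) and 3 *N153SLSL/LSL* mice (control mice), all 2 months old. Both genotypes carried the N153S knockin behind a Lox-STOP-Lox cassette, which blocks the allele until Cre removes it. Only the Pcp2-cre mice carried Cre, under the Purkinje cell promoter *Pcp2*, so that the mutant allele was restricted to those cells while the RNA came from all cells of the tissue. Mice 1 and 2 of each genotype were male and mouse 3 was female.

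GABA is made from glutamate by the glutamate decarboxylases and is loaded into synaptic vesicles by a transporter that also carries glycine. It opens chloride channels, the GABA-A receptors, which are assembled from several kinds of subunit, and it acts more slowly through the GABA-B receptor, a G protein-coupled receptor that works as a pair of different subunits. In the cerebellum, Purkinje cells release GABA onto the cerebellar nuclei, basket and stellate cells release it onto Purkinje cells, and Golgi cells release GABA and glycine onto granule cells.

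Libraries held between 6733178 and 10178218 counts, and 3 counts, taken as the floor of detection, were worth 0.297 to 0.447 CPM (the count for a library of standard size), which covers counting error only. *Sting1*, the gene that carries the knockin, stood at 23.2, 27.2 and 26.2 CPM in control mice 1 to 3. In Pcp2-cre mice 1 to 3 it stood at 44.4, 34.2 and 35.5 CPM, higher without overlap, as did 10.8% of all tested genes. Markers of granule cells, the most abundant neurons of the cerebellum, summed to between 5700 and 6114 CPM over all 6 mice. Choroid plexus markers varied between control mice, from 166 to 2292 CPM in sum, against 165 to 266 CPM in Pcp2-cre mice. Of 12 microglial markers, 10 were called higher in Pcp2-cre mice, and the list summed to 129 to 131 CPM in control and 363 to 412 CPM in Pcp2-cre mice. From public single-cell data, the paper reports *Sting1* mRNA in microglia and little or none in Purkinje cells. By staining, which it holds to be more reliable, it reports STING protein in Purkinje cells of the cerebellum. In Pcp2-cre mice it reports that this protein rose in Purkinje cells, with no rise in microglia or in other neurons. The part of microglia or of Purkinje cells in the level of *Sting1* RNA was not tested.

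The level of each gene was first compared per length, in FPKM (fragments scaled to gene length and library size). *Gabra6*, the GABA-A receptor subunit typical of granule cells, stood highest, with 247, 241 and 231 FPKM in control mice. *Gabbr1*, the GABA-B subunit that binds GABA, followed with 162, 164 and 159 FPKM, and *Gad1*, which encodes the decarboxylase GAD67, with 145, 148 and 136 FPKM. These 3 levels did not overlap one another in control mice.

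*Gabrd*, the extrasynaptic delta subunit that partners *Gabra6* in granule cells, had 86.6, 85.0 and 92.3 FPKM in control mice. *Abat*, the mitochondrial transaminase that breaks GABA down, had 64.8, 64.5 and 61.2 FPKM, which overlapped the 58.8 to 61.5 FPKM of *Glrb*, the glycine receptor beta subunit. *Nlgn2* had 50.6 to 53.2 FPKM, and *Gabbr2*, *Gabrb2* and *Slc32a1*, between 44.9 and 51.9 FPKM, overlapped one another. *Gad2* and *Gphn* stood between 22.2 and 27.1 FPKM, *Slc6a11* between 7.57 and 9.37 FPKM and *Gabra4* between 6.94 and 7.39 FPKM, and the other 14 genes below these. In Pcp2-cre mice *Gabbr1*, at 114 to 121 FPKM, overlapped *Gad1*, at 117 to 131 FPKM, and *Gabbr2*, at 28.3 to 31.1 FPKM, lay below *Slc32a1*, at 37.5 to 40.1 FPKM.

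**Figure D1:**
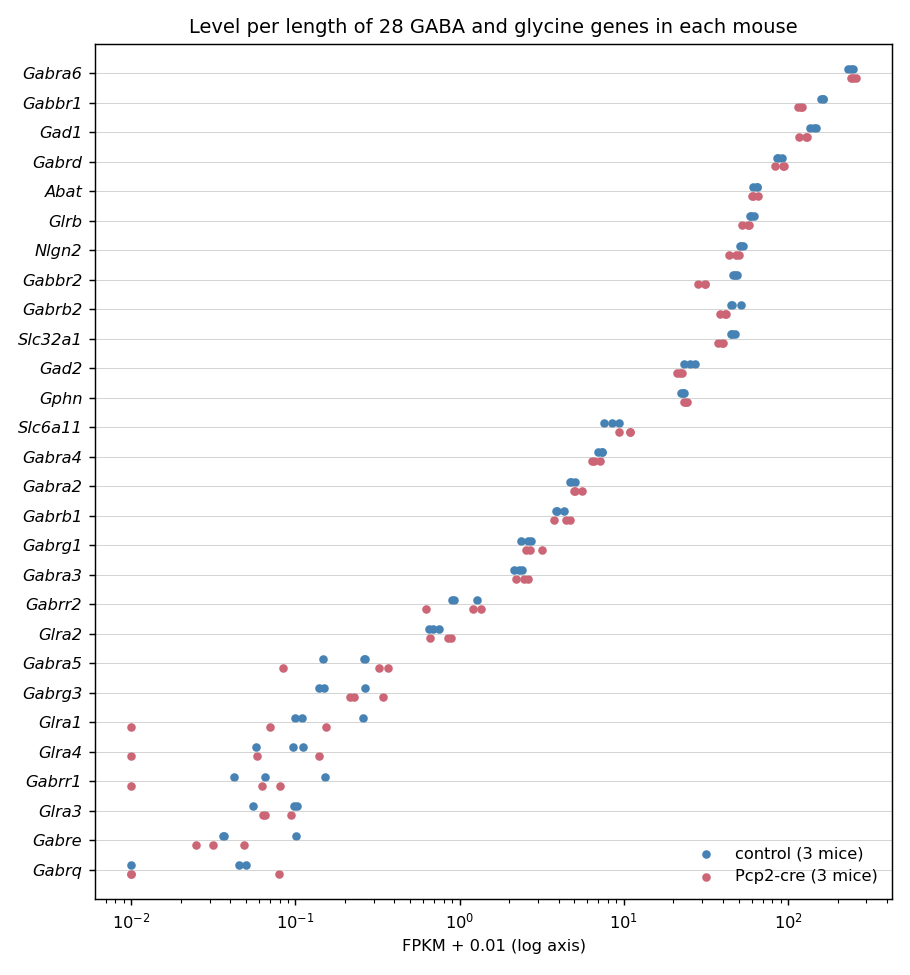
Levels of the 28 genes in FPKM plus 0.01 on a log axis, 1 point per mouse, in control (blue) and Pcp2-cre (red) mice, ordered by the control mean. *Gabra6* stands at the top near 240 FPKM in both genotypes, and the 2 GABA-B genes are the abundant genes whose red points stand farthest to the left of the blue.

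Of the 28 genes, 7 had too few counts to be tested. *Gabra5* was read 11, 4 and 10 times in control and 3, 10 and 11 times in Pcp2-cre libraries. The other untested genes were the receptor subunits *Gabre*, *Gabrq*, *Gabrr1*, *Glra1*, *Glra3* and *Glra4*, with at most 8 counts in any mouse. In control and then Pcp2-cre mice, *Glra1* had 5, 2 and 3 and then 0, 2 and 2 counts, *Glra3* 8, 4 and 3 and then 2, 3 and 2, and *Glra4* 4, 3 and 1 and then 1, 6 and 1. *Gabre* had 1, 5 and 1 and then 1, 3 and 1 counts, *Gabrq* 1, 2 and 4 and then 2, 1 and 0, and *Gabrr1* 2, 6 and 2 and then 2, 1 and 0. Their genotype difference was not detectable at this depth. The *Gabra5* exons also overlap those of a more abundant gene on the opposite strand, and whether strand was used in counting is not given in the sources used here.

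The remaining 21 genes entered edgeR's quasi-likelihood test of genotype, fitted over the 16961 genes that passed a filter on low counts, with Benjamini-Hochberg adjustment over all of them. SE below is the standard error of the log2 fold change from this fit. With a limit of 0.05 on the adjusted p and of 0.5 on the size of the log2 fold change, 1 of the 21 genes, *Gabbr2*, was called lower in Pcp2-cre mice and none was called higher. Over all tested genes 3.17% were called, 1.79% lower and 1.37% higher. At an adjusted p of at most 0.05 with no condition on fold, 8 of the 21 genes were lower: *Gabbr2*, *Gabbr1*, *Slc32a1*, *Gad2*, *Gabrb2*, *Gad1*, *Nlgn2* and *Glrb*. None was higher, although 2 genes above 0, *Gabrb1* and *Slc6a11*, had an unadjusted p under 0.05. Over all tested genes 7.74% passed this rule, 4.75% lower and 2.99% higher. Among the 21 genes the median log2 fold change was -0.03, with 13 genes below 0 and 8 above, beside 0.0045 over all tested genes. In whole tissue, fewer cells of a type and less RNA per cell cannot be told apart.

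In CPM, 8 of the 21 tested genes had all 3 Pcp2-cre mice below all 3 control mice, and 2 had them above. These 8 are the genes that passed the test on the same mice, so their separation is no further support. Over all tested genes 22.2% had levels that did not overlap, 11.4% lower and 10.8% higher, which is near the share of the 2 genes, *Gabrb1* and *Slc6a11*, that stood higher without overlap.

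**Figure D2:**
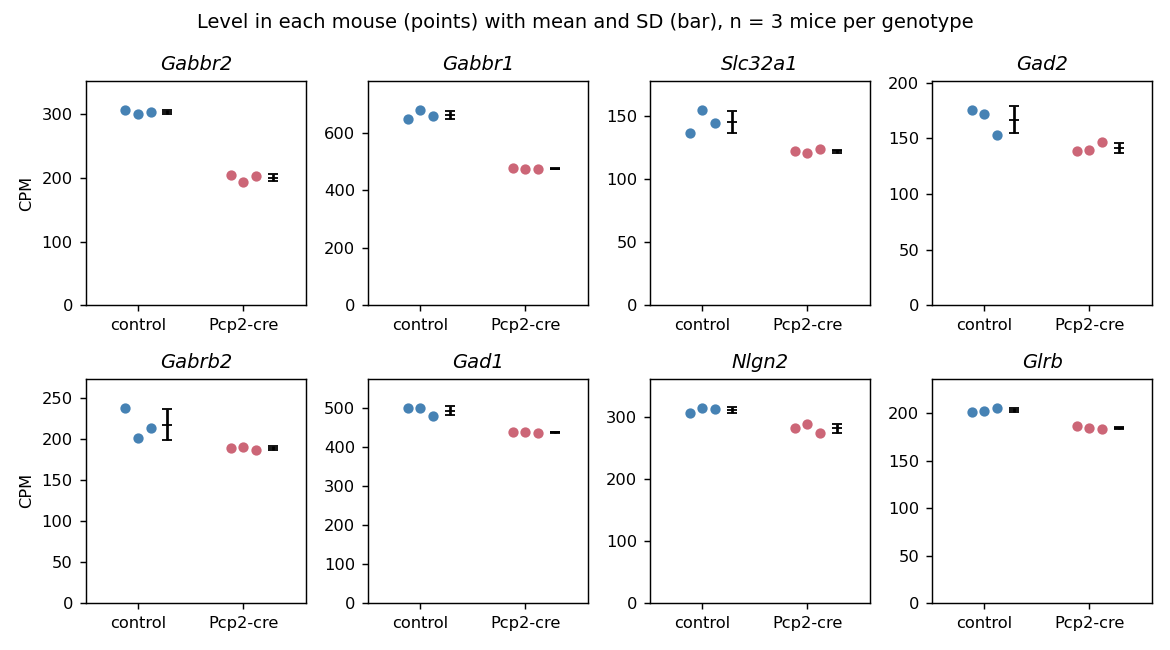
CPM of the 8 genes with an adjusted p of at most 0.05, 1 point per mouse, with the mean and SD as a bar (n = 3 mice per genotype) and every axis starting at 0. Pcp2-cre mice lie below control mice in each panel, by the widest distance relative to the control for *Gabbr2*, with 194 to 205 CPM against 301 to 307 CPM.

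The GABA-B receptor genes showed the largest differences of the 21 tested genes. *Gabbr2*, the subunit that couples to the G protein, is encoded on the reverse strand of chromosome 4 (46662244 to 46991971, GRCm39). It had 307, 301 and 303 CPM in control mice 1 to 3 and 205, 194 and 203 CPM in Pcp2-cre mice 1 to 3. Its log2 fold change was -0.60 (SE 0.0411, edgeR adjusted p = 1.55e-09), so its level fell by 33.9%. *Gabbr1*, on chromosome 17 from 37356703 to 37387265 on the forward strand, had 648, 677 and 657 CPM in control mice and 476, 473 and 473 CPM in Pcp2-cre mice. The log2 fold change was -0.48 (SE 0.0362, edgeR adjusted p = 5.82e-09), a level that fell by 28.3%, which left it just short of the fold threshold. Both subunits kept an adjusted p of at most 0.05 in each of the 17 alternative fits, with log2 fold changes of -0.66 to -0.57 for *Gabbr2* and -0.50 to -0.45 for *Gabbr1*. Annotated exons of *Gabbr1* and *Gabbr2* overlap opposite-strand noncoding genes by 494 and 52 bases, and reads of the partners cannot be told apart where strand was not used.

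The log2 ratio of *Gabbr2* to *Gabbr1* within each mouse, in CPM, was -1.08, -1.17 and -1.11 in control mice and -1.22, -1.29 and -1.22 in Pcp2-cre mice. The ratio was lower in all 3 Pcp2-cre mice than in any control, and the mean difference of -0.12 had p = 0.10 in a two-sided exact permutation test, the smallest p that 3 mice against 3 allow, and 0.20 after Benjamini-Hochberg adjustment over 6 such ratios. The 6 ratios were chosen after the levels had been seen.

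The upstream sequences of these 2 genes and of *Gabra6*, the most abundant gene of the set, which did not pass the test, are shown because the 2 GABA-B genes moved together. Each is the 250 bases before the RefSeq start, on the strand of the gene, 5′ to 3′, in GRCm38.p6, with capitals marking the GC box GGGCGG or its reverse complement, a frequent promoter motif. *Gabbr1* lies at chr17:37045716-37045965 on the forward strand, *Gabbr2* at chr4:46991715-46991964 on the reverse strand and *Gabra6* at chr11:42321073-42321322 on the reverse strand.
Gabbr1: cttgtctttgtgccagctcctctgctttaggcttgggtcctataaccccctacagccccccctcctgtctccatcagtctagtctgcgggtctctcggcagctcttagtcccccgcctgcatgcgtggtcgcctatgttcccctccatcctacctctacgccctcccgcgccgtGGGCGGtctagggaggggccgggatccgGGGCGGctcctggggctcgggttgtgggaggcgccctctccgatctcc
Gabbr2: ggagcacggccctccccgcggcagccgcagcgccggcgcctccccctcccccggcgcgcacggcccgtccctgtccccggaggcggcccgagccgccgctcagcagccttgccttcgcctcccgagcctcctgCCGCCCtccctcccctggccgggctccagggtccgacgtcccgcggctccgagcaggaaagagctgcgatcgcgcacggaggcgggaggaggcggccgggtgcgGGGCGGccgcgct
Gabra6: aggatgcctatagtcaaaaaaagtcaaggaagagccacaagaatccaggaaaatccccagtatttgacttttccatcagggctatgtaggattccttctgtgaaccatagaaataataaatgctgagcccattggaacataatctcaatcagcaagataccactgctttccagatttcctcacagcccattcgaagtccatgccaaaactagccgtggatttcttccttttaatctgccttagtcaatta

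The GC boxes of *Gabbr1* begin 76 and 48 bases before the start, with 1 more beginning 13 bases after it, and those of *Gabbr2* 117 and 13 bases before. In the windows of 250 bases before to 50 bases after the start, G and C made up 67.3% of *Gabbr1*, 80.3% of *Gabbr2* and 42.0% of *Gabra6*. RefSeq windows were found for 25 of the 28 genes, 29 windows in all, of which 16 (55.17%) held a GC box on either strand, beside 35.66% of all 32851 windows. The motif AGGTCA, to which ROR receptors bind, was in 1 of the 29 windows (3.45%) beside 16.26% of all, and the cAMP response element TGACGTCA in none beside 1.79%. TATAAA was in 5 windows (17.24%) beside 13.62% of all. The median share of G and C was 59.0% in the 29 windows and 52.7% in all. Among the lower genes, *Gad2* and *Slc32a1* held no GC box and the others did. Of tested genes that did not pass, *Gabra2*, *Gabra4*, *Gabrg3*, *Glra2*, *Gphn* and *Slc6a11* held a GC box. *Gabra3*, *Gabra6*, *Gabrb1*, *Gabrg1* and *Gabrr2* held none. These matches are a description of the letters in the windows, and a link to the levels was not tested.

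The genes that make and load GABA were lower by smaller amounts. *Slc32a1* encodes the vesicular transporter of GABA and glycine and lies on chromosome 2 from 158452605 to 158464883 on the forward strand. It had 137, 154 and 145 CPM in control mice and 122, 121 and 123 CPM in Pcp2-cre mice, with a log2 fold change of -0.25 (SE 0.0448, edgeR adjusted p = 6.85e-04). It kept an adjusted p of at most 0.05 in all 17 alternative fits. Its exons overlap those of 2 noncoding genes on the opposite strand, *Gm14204* and *Gm14205*, which had between 173 and 334 counts per mouse and an edgeR adjusted p of 0.738 and 0.434. In the FPKM, however, *Gm14205* stood at 0 in every mouse. Reads of these genes and of *Slc32a1* cannot be told apart where strand was not used.

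*Gad2* encodes GAD65, the decarboxylase at synaptic terminals, on chromosome 2 from 22511862 to 22583886. It had 1405, 1154 and 1541 counts in control libraries and 1054, 1207 and 992 in Pcp2-cre libraries, which after scaling gave a log2 fold change of -0.23 (SE 0.0499, edgeR adjusted p = 0.00393). *Gad1*, on chromosome 2 from 70383416 to 70432372, had 499, 500 and 479 CPM in control and 440, 438 and 437 CPM in Pcp2-cre mice, a log2 fold change of -0.17 (SE 0.0371, edgeR adjusted p = 0.00454). The opposite-strand gene *Gad1os*, which shares 99 exon bases with *Gad1*, had 3 to 13 counts. In CPM, the 3 Pcp2-cre mice stood close together for both *Gad1* and *Slc32a1*, and control mouse 3 was the lowest control for both decarboxylases. The calls of both decarboxylases were lost with a choroid plexus score as a covariate and in both fits of FPKM, and that of *Gad1* also with a cerebellar nuclei and hindbrain score, with adjusted p of up to 0.202 for *Gad1* and 0.306 for *Gad2*. The log2 fold change itself stayed between -0.19 and -0.14 for *Gad1* and between -0.30 and -0.12 for *Gad2* over the 17 fits. Without Pcp2-cre mouse 2 the adjusted p of *Gad2* was 0.0559 from edgeR. The log2 ratios of *Gad2* and of *Slc32a1* to *Gad1* overlapped between genotypes (exact permutation p = 0.20 and 0.40). With 3 mice a genotype this test cannot go below 0.10, so it cannot decide whether the 3 genes fell by different amounts.

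The 2 genes of the set for taking up and breaking down GABA did not pass the test. *Abat* had 325, 322 and 314 CPM in control mice and 302, 316 and 327 CPM in Pcp2-cre mice, with a log2 fold change of -0.03 (95% interval -0.11 to 0.06, edgeR adjusted p = 0.823). *Slc6a11*, the GABA transporter GAT3 of astrocytes, had 40.5, 37.2 and 46.2 CPM in control and 47.2, 50.6 and 46.5 CPM in Pcp2-cre mice, a log2 fold change of 0.21 (95% interval 0.05 to 0.37, edgeR adjusted p = 0.126). In CPM all Pcp2-cre mice stood above all control mice, by a narrow margin over control mouse 3, while the FPKM of *Slc6a11* overlapped. Without control mouse 3 its edgeR adjusted p was 0.0111, and with another mouse left out it was up to 0.436. Among 14 markers of Bergmann glia and astrocytes, 6 were higher and 4 lower at an edgeR adjusted p of at most 0.05, and their sum was 4486 to 4582 CPM in control and 4712 to 4766 CPM in Pcp2-cre mice. The part of the glial markers in the level of *Slc6a11* was not tested.

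Among the 10 tested subunit genes of the GABA-A receptor and its rho relatives, only *Gabrb2* passed the test. *Gabrb2*, a beta subunit of many GABA-A receptors, lies on chromosome 11 from 42310493 to 42523417 on the forward strand, next to *Gabra6*. It had 238, 201 and 213 CPM in control mice and 189, 191 and 187 CPM in Pcp2-cre mice, with a log2 fold change of -0.20 (SE 0.0514, edgeR adjusted p = 0.0151). Control mouse 1 stood above the other controls. The call was lost in 8 of 17 alternative fits, among them those without control mouse 1 (edgeR adjusted p = 0.158) and without Pcp2-cre mouse 1, 2 or 3 (0.0750, 0.0885 and 0.0807).

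*Gabra6*, on chromosome 11 from 42197264 to 42211910 on the reverse strand, had 576, 586 and 551 CPM in control and 594, 585 and 607 CPM in Pcp2-cre mice. Its log2 fold change was 0.06 (95% interval -0.02 to 0.14, edgeR adjusted p = 0.441), and the groups overlapped. *Gabrd* had 222, 214 and 232 CPM in control and 234, 230 and 217 CPM in Pcp2-cre mice, a log2 fold change of 0.03 (95% interval -0.06 to 0.12, edgeR adjusted p = 0.817). The log2 ratio of *Gabrb2* to *Gabra6* within each mouse was -1.28, -1.55 and -1.37 in control and -1.65, -1.62 and -1.70 in Pcp2-cre mice (two-sided exact permutation p = 0.10, adjusted p = 0.20 over the 6 ratios). The ratio of *Gabrd* to *Gabra6* overlapped between genotypes (exact permutation p = 0.90).

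The other 7 tested subunits did not pass. *Gabra2*, *Gabra3* and *Gabra4*, alpha subunits that set the affinity and the place of the receptor, had log2 fold changes of 0.08, 0.22 and -0.02. *Gabrb1* had 0.11 (95% interval 0.00 to 0.22, edgeR adjusted p = 0.266), and stood higher without overlap in CPM while its FPKM overlapped. *Gabrg1*, *Gabrg3* and *Gabrr2* had log2 fold changes of 0.09, -0.03 and -0.17, with standard errors of 0.118, 0.269 and 0.264, and at most 33 counts per mouse for *Gabrg3* and 25 for *Gabrr2*. *Gabrg1*, *Gabra2*, *Gabra4* and *Gabrb1* lie in 1 cluster on chromosome 5, and none of the 4 passed the test. The exons of *Gabrb1* overlap those of *Gabra4* by 101 bases and those of *Commd8* by 396 bases on the opposite strand.

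**Figure D3:**
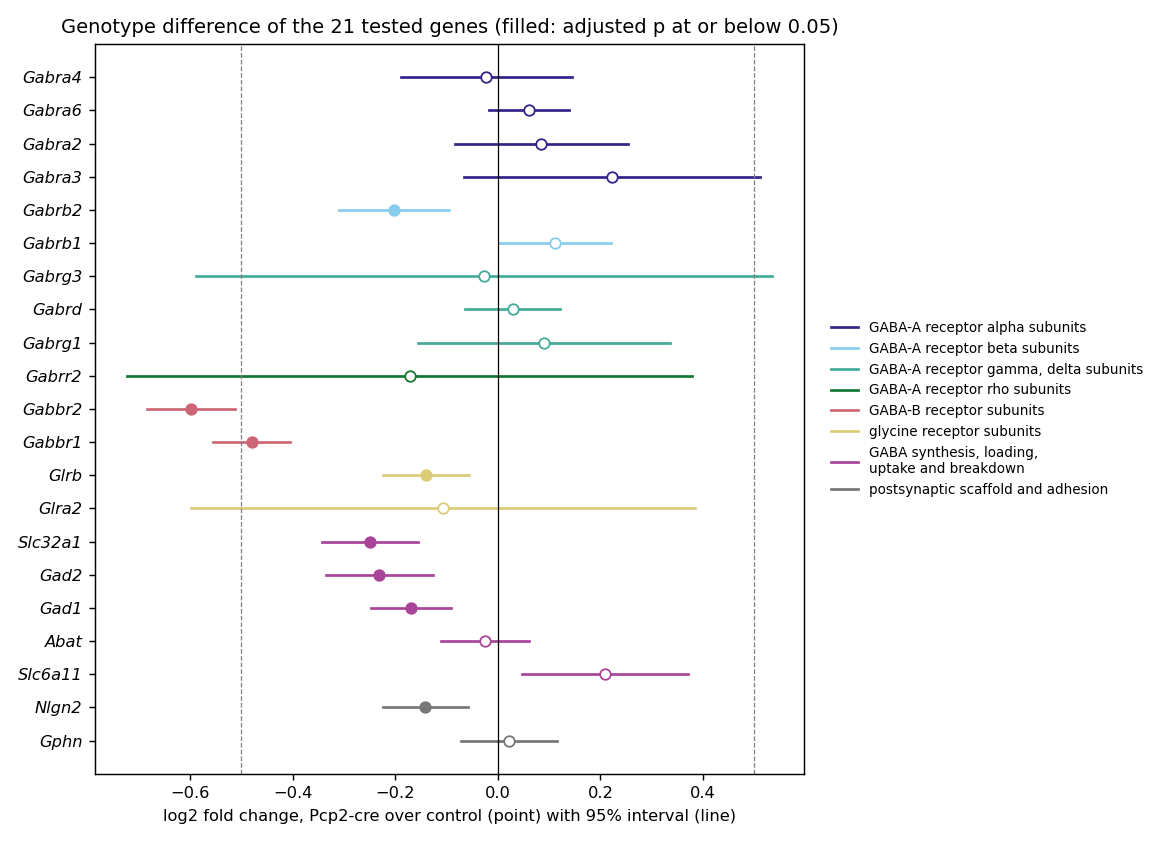
Log2 fold change of Pcp2-cre over control for the 21 tested genes, with its 95% interval as a line, coloured by role, and dashed lines at the fold threshold of 0.5. Filled points have an edgeR adjusted p of at most 0.05. *Gabbr2* at -0.60 and *Gabbr1* at -0.48 stand apart to the left of the other filled points, which lie between -0.25 and -0.14.

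Glycine receptor genes were represented mainly by *Glrb*, the beta subunit that ties the receptor to gephyrin, on chromosome 3 from 80749136 to 80882860. It had 202, 203 and 206 CPM in control and 186, 184 and 184 CPM in Pcp2-cre mice, a log2 fold change of -0.14 (SE 0.0401, edgeR adjusted p = 0.0343). *Glra2*, the only alpha subunit with enough counts to be tested, had 16 to 28 counts per mouse and a log2 fold change of -0.11 (95% interval -0.60 to 0.39). The level of *Glrb* fell by 9.22%, and the 3 untested alpha subunit genes had at most 8 counts in any mouse.

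*Nlgn2*, neuroligin 2, an adhesion protein of inhibitory synapses, lies on chromosome 11 from 69713948 to 69728613. It had 306, 315 and 314 CPM in control and 282, 290 and 275 CPM in Pcp2-cre mice, a log2 fold change of -0.14 (SE 0.0399, edgeR adjusted p = 0.0309). *Gphn*, which encodes gephyrin, the scaffold that anchors both receptor families, had 89.6 to 93.8 CPM in control and 91.1 to 94.5 CPM in Pcp2-cre mice, with a log2 fold change of 0.02 (95% interval -0.07 to 0.12, edgeR adjusted p = 0.863). The log2 ratio of *Glrb* to *Gphn* was 1.11, 1.14 and 1.20 in control and 0.99, 0.96 and 1.01 in Pcp2-cre mice, without overlap (two-sided exact permutation p = 0.10, adjusted p = 0.20 over the 6 ratios). The calls of *Glrb* and *Nlgn2* were the least firm of the 8, lost in 12 and 10 of the 17 alternative fits, with adjusted p of up to 0.376 and 0.358. Leaving out any 1 mouse gave *Glrb* an edgeR adjusted p of 0.0682 to 0.149, and leaving out any but control mouse 3 gave *Nlgn2* 0.0593 to 0.133.

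Other genes of the same pathways were read from a list of 41 genes, of which 40 were tested. At an edgeR adjusted p of at most 0.05, 4 were lower, 1 was higher and 35 did not pass, and the median log2 fold change was -0.02. Over all tested genes 4.75% were lower and 2.99% higher by this rule, and 3.17% were past the fold threshold as well. *Kctd12*, an auxiliary subunit of the GABA-B receptor that speeds its desensitization, was the only one past the fold threshold. It had 301, 282 and 367 CPM in control and 211, 231 and 217 CPM in Pcp2-cre mice, a log2 fold change of -0.53 (SE 0.0678, edgeR adjusted p = 1.19e-05). Control mouse 3 stood above the other mice, and without it the log2 fold change was -0.41, short of the fold threshold (edgeR adjusted p = 1.08e-07). With FPKM it was -0.55 and -0.56 (limma adjusted p = 0.0529 and 0.0592). *Kctd8* and *Kctd12b*, the related genes that were tested, had log2 fold changes of 0.06 and 0.05 with edgeR adjusted p of 0.772 and 0.921, and *Kctd16*, not tested, had at most 9 counts.

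*Insyn1*, a protein of the inhibitory postsynapse that binds gephyrin and the dystrophin complex, had 136, 137 and 133 CPM in control and 101, 90.5 and 96.9 CPM in Pcp2-cre mice (log2 fold change -0.49, edgeR adjusted p = 1.14e-07). *Dmd*, dystrophin itself, had 60.3, 56.9 and 59.8 CPM in control and 48.1, 47.9 and 46.5 CPM in Pcp2-cre mice (log2 fold change -0.31, edgeR adjusted p = 0.00127), but 0.0062 and 0.0066 in the 2 fits of FPKM. *Slc6a6*, the taurine transporter, which also carries GABA, had a log2 fold change of -0.26 (edgeR adjusted p = 1.67e-04), and with FPKM -0.24 and -0.25 (limma adjusted p = 0.128 and 0.135). *Igsf9b*, an adhesion protein of inhibitory synapses, rose, with 352, 331 and 346 CPM in control and 390, 377 and 412 CPM in Pcp2-cre mice (log2 fold change 0.19, edgeR adjusted p = 0.00438, but 0.0545 without Pcp2-cre mouse 3 and 0.151 with the hindbrain score). The 5 plasma membrane transporters included *Slc6a5*, the glycine transporter of Golgi cells, at 0.12, and *Slc6a9* at 0.01, neither of which passed. None of 8 genes for breaking down GABA and glycine passed, nor did the chloride cotransporters *Slc12a2*, at 0.03, and *Slc12a5*, at -0.11 with an edgeR adjusted p of 0.0671.

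Markers of cerebellar cell types were read in the same mice. All 16 Purkinje cell markers were lower at an edgeR adjusted p of at most 0.05, 14 of them past the fold threshold. Their median log2 fold change was -0.76, and their sum was 8692 to 9496 CPM in control and 4918 to 5436 CPM in Pcp2-cre mice. Of 12 markers of molecular layer interneurons 1 was lower, with a median of -0.02 and sums of 691 to 714 CPM in control and 663 to 706 CPM in Pcp2-cre mice. Of 8 tested markers of Golgi and other granular layer interneurons 1 was higher, and of 12 granule cell markers 1 was higher, with medians of 0.06 and 0.01. Among glial lists, 4 of 10 oligodendrocyte lineage markers were higher, with sums of 3647 to 3863 CPM in control and 4263 to 4477 CPM in Pcp2-cre mice. The 14 listed markers of the cerebellar nuclei and hindbrain summed to 19.8 to 33.0 CPM in control and 48.8 to 63.6 CPM in Pcp2-cre mice, with 1 of 3 tested genes called higher, *Spp1*, which activated microglia also express. The part of any cell type in the lower levels of the 8 genes was not tested.

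**Figure D4:**
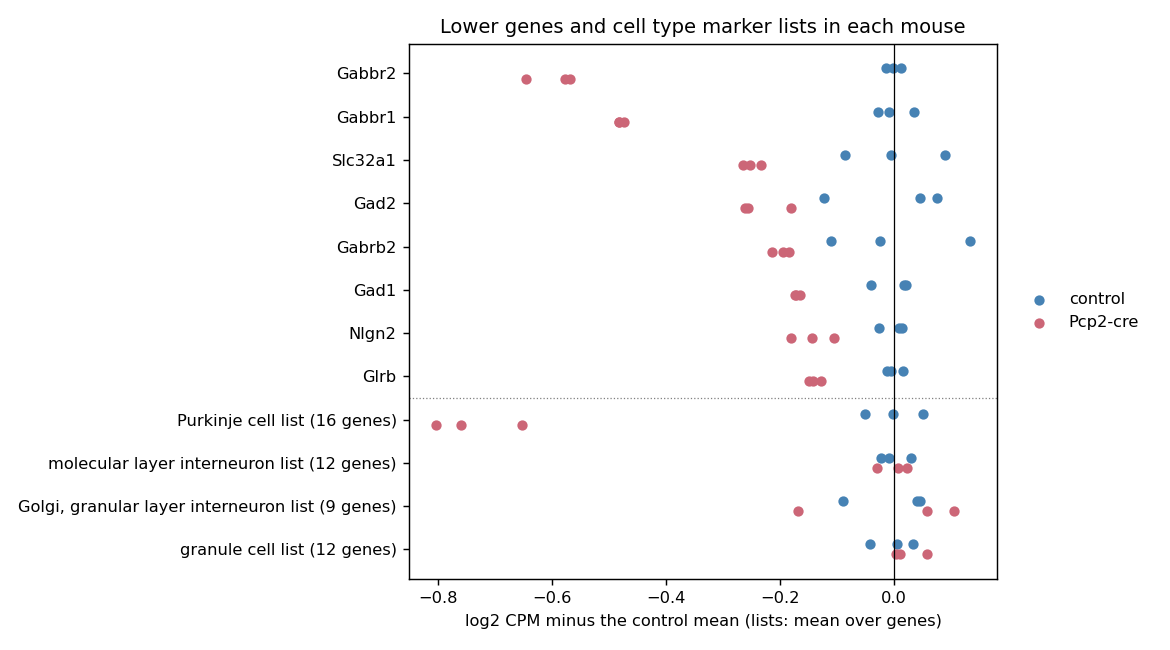
Log2 CPM of each mouse minus the control mean for the 8 lower genes (above the dotted line) and, as the mean over its genes, for 4 lists of cell type markers (below it), with control mice in blue and Pcp2-cre mice in red. The 2 GABA-B genes stand to the left of the other 6, which lie between about -0.3 and -0.1, the Purkinje cell list is lower in every Pcp2-cre mouse than in any control, and the red and blue points of the 2 interneuron lists and the granule cell list overlap.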

How the data were processed

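Whole cerebellar RNA, enriched for poly A, of 3 control and 3 Pcp2-cre mice was analysed, and genotype, sex and mouse number came from the labels. The authors aligned paired reads to GRCm39 with STAR and deposited raw counts per gene (featureCounts is among the tools they name) and, in a second table, FPKM, which relate to StringTie in their methods. Tool versions, the annotation release, strandedness and the handling of multi-mapped reads are not given in the sources used here. The test on counts was the quasi-likelihood test of edgeR 4.0.16 in R 4.3.3, on genotype in all 6 mice after filterByExpr and TMM, and CPM are scaled with TMM. Calls used a limit of 0.05 on the p after Benjamini-Hochberg adjustment, with or without a log2 fold change of 0.5. Alternatives were DESeq2 1.42.0, its size factors, a likelihood ratio test, other count filters, a replicate block, sex or marker scores as covariates, limma 3.58.1 on log2(FPKM + 1) or log2(FPKM + 0.1), a fold threshold of 0.25, and each mouse left out. Named genes were all members, with every mouse's value for those with an adjusted p of at most 0.05 and for the 5 most abundant, and other pathway genes passing the test; the pathway genes named beside these, such as *Kctd8* and *Slc12a5*, were chosen after their values were seen. Members and lists were chosen with earlier results of these data known. Coordinates came from Gencode M39 (GRCm39), upstream sequences from RefSeq (GRCm38.p6). The fits were tested on simulated counts, only with changes above the fold threshold, so calls of smaller changes were not covered. No replicate pair was a duplicate by a chi-square test of its counts.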

Additional observations from a re-analysis of the deposited data

How the results depend on the processing

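Of the 17 alternative fits, the count of members called lower stayed at 1 in all, and became 2 with a fold threshold of 0.25. The 8 members lower at an adjusted p of at most 0.05 became 3 with the choroid plexus score as a covariate, 4 with the cerebellar nuclei and hindbrain score, 3 and 3 with limma on log2(FPKM + 1) and log2(FPKM + 0.1), and 4 to 7 with a mouse left out, with 5 without control mouse 1, Pcp2-cre mouse 1 or Pcp2-cre mouse 3, and 4 without Pcp2-cre mouse 2; the cause was not tested. Over all tested genes, the 805 lower and 507 higher at that limit became 516 and 333, 471 and 263, 277 and 230, and 246 and 189 in the fits with the choroid plexus score, the hindbrain score, FPKM + 1 and FPKM + 0.1. DESeq2 gave 548 and 281. The 0 members higher became 0 to 1 with a mouse left out, the 1 being *Slc6a11* without control mouse 3 (unadjusted p under 0.05 in the reported fit: 2 members). The median of the members, -0.03, was between -0.070 and -0.020 with a mouse left out, -0.13 over all 28 with no filter on low counts, -0.055 with the hindbrain score and, on the other side of 0, 0.0029 with limma on log2(FPKM + 1). Of the pathway list, the 1 gene called lower became 2 with no filter on low counts, 0 with limma on log2(FPKM + 1), 4 with a fold threshold of 0.25, and 1 to 2 with a mouse left out, with 2 without Pcp2-cre mouse 1 or 3. Its 4 genes lower at an adjusted p of at most 0.05 became 1, *Insyn1*, in both FPKM fits and stayed at 4 with any mouse left out. Its 1 gene higher became 2 with no filter and with the choroid plexus score, 0 with the hindbrain score, and 0 to 1 with a mouse left out, the 0 being without Pcp2-cre mouse 3.

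Sign turned only in genes whose adjusted p stayed above 0.05, apart from *Dmd* at 0.0062 and 0.0066 in the FPKM fits. With the choroid plexus score the log2 fold change was -0.026 for *Gabrg1*, -0.035 for *Gabrd*, 0.0090 for *Glra2* and 0.010 for *Abat*, and with the hindbrain score -0.0045 for *Gabra2*, -0.0044 for *Gabrg1* and 0.0093 for *Glra2*. With limma on log2(FPKM + 1) it was 0.092 for *Gabrg3*, 0.0029 for *Gabrr2* and 0.082 for *Glra2*, and on log2(FPKM + 0.1) 0.37 for *Gabrg3* and 0.17 for *Glra2*. With a mouse left out it ran from -0.087 to 0.036 for *Gabra4*, -0.016 to 0.19 for *Gabrg1*, -0.22 to 0.28 for *Gabrg3*, -0.30 to 0.011 for *Gabrr2* and -0.054 to 0.00080 for *Abat*.

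Mice of the same number deviated together little, with correlations of 0.04, 0.06 and 0.17 for numbers 1, 2 and 3, so the numbers were not taken to pair the mice. With the replicate block, 1 member was called lower and 8 were lower at an adjusted p of at most 0.05, and *Gabrg3* had a log2 fold change of 0.0091, against 0.011 with sex as a covariate. With 3 mice a genotype the exact permutation test cannot go below 0.10, and 7 of the 28 genes lay too low for a test.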
